A study of Mus musculus with 8 samples.

Results

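RNA was sequenced from 8 whole livers of male mice, and the 5 livers with a Trp53 lesion induced by Alb-Cre were compared with the 3 livers that had no Cre. The members were taken from the genotype labels of all 8 livers. The 5 Alb-CreTG livers were 3 LP245/+, in which Cre switches 1 Trp53 allele from wild type to R245W, and 2 LPfl/+, in which Cre deletes 1 Trp53 allele. The 3 Alb-Cre0 livers carried a targeted allele that had not been recombined, the fl allele in Cre-negative replicates 1 and 2 and the wild-type-to-R245W allele in replicate 3. The other Trp53 allele was wild type in all 8. Every mouse was kept on HFCD, a diet rich in fat and lacking choline, for 3 months from 21 days of age. The question was which genes differed in the same direction whether the lesion was a deletion or the R245W substitution.

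The library numbers fall into 2 series. The first holds the 3 LP245/+ livers with Cre-negative replicates 2 and 3, and the second holds both LPfl/+ livers with Cre-negative replicate 1. Each lesion could therefore be compared with Cre-negative livers of its own series, and these comparisons share no liver. The deletion is set against a single Cre-negative liver. By the labels no Cre-positive liver with 2 wild-type alleles was measured, so the Cre transgene and the lesion cannot be told apart. The study's text instead describes its unaltered cohort as carriers of Alb-Cre with wild-type Trp53, and the labels were followed here, so if that description holds for these livers the comparison is not one of Cre. The albumin promoter limits Cre to the epithelium of the liver, hepatocytes and bile duct cells, so that immune, endothelial and stellate cells retain an intact Trp53.

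p53 is a transcription factor that is stabilized by DNA damage and other stress and then induces genes of cell cycle arrest, apoptosis, DNA repair and metabolism. Many tumor mutations, R245W among them, change an amino acid of the DNA-binding domain, and because p53 works as a tetramer a mutant subunit can interfere with wild-type subunits. In the liver, a diet poor in choline hampers the export of lipid and brings cycles of hepatocyte injury and renewal in which p53 acts as a brake on proliferation.

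The codon that the R245W allele alters is shown first, because it is what distinguishes the lesions. The line gives 27 coding bases of transcript Trp53-203 in GENCODE M21 (plus strand, exon 7) with the codon that R245W changes, at chr11:69589210-69589212 of GRCm38, in capitals.

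Trp53-203: gggggcatgaacCGCcgacctatcctt

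The capitals read CGC, an arginine codon. The next 4 lines show promoters of genes described below. Each gives the 250 bases before the RefSeq transcription start (build GRCm38.p6, 5′ to 3′ on the strand of the gene). Capitals show the matches of a motif chosen for each gene. They were found for Cdkn1a (chr17:29090729-29090978, plus strand), Aen (chr7:78895808-78896057, plus strand), Mki67 (chr7:135716380-135716629, minus strand) and Cry1 (chr10:85185055-85185304, minus strand). The capitals mark a p53 full site in Cdkn1a and a p53 half-site in Aen. In Mki67 they mark both matches of the cell cycle element TTTGAA, and in Cry1 the E-box CACGTG, bound by clock proteins. Matches of the other motifs were left in lower case, such as CACGTG in Aen.

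Cdkn1a: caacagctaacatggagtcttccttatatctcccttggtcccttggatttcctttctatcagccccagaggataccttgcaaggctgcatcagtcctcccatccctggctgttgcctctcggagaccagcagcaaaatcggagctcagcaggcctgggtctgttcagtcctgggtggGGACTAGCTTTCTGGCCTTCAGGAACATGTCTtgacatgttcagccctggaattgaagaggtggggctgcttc
Aen: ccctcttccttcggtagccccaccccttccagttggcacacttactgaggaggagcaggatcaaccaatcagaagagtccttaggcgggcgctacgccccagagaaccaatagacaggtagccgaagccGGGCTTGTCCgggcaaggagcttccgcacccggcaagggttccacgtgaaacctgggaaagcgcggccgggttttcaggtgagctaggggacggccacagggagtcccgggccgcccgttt
Mki67: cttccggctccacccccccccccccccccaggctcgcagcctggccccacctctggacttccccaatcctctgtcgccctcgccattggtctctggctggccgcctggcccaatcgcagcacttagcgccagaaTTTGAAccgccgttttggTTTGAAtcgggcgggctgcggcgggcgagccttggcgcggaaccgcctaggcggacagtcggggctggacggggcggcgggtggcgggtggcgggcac
Cry1: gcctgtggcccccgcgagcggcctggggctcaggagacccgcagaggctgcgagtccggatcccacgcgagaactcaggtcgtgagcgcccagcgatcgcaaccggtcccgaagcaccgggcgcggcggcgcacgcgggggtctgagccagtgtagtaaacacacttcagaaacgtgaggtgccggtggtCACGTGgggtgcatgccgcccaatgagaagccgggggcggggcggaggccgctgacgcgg

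The libraries held between 26304526 and 31370714 counts, and the edgeR filter kept 16496 of 49585 genes. The 21 hepatocyte markers looked up, albumin among them, took at least 14.4% of the counts in every liver, and none was at 0 in every liver. The series of library numbers lay apart on the leading principal component (31.1% of the variance). Normalized counts below are counts divided by the DESeq2 size factor of the liver.

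The targeted gene was read first. Trp53 had normalized counts of 226, 258 and 202 in Cre-negative replicates 1 to 3, 127 and 178 in the LPfl/+ livers, and 316, 294 and 194 in the LP245/+ livers. Both LPfl/+ livers lay below all Cre-negative livers, and the LP245/+ livers lay on both sides of them. With both lesions together the log2 fold change of Trp53 was -0.06 (SE 0.22), and 22 of the 30 arrangements of Cre within series gave a difference as large (2-sided exact permutation test, p = 0.733). Reads of wild-type and R245W transcripts are counted together, and in whole liver fewer cells of a type and less RNA per cell cannot be told apart.

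Between Cre-positive and Cre-negative livers, with the series as a covariate, no gene passed an adjusted p of 0.05 in edgeR's quasi-likelihood test (0 of 16496 genes, 0%). The smallest adjusted p was 0.485, for Cdkn1a and Gm42047. At an unadjusted p below 0.05, 381 genes (2.31%) were lower and 729 (4.42%) higher in Cre-positive livers. The groups of livers did not overlap for 353 genes that were lower (2.14%) and 390 that were higher (2.36%). DESeq2 with the same terms called 12 genes at an adjusted p of 0.05, 8 lower and 4 higher. The genes lower by DESeq2 were Cdkn1a (adjusted p = 6.71e-08), Gm42047, Cyp8b1, Gstm3, Ugdh, Tsku, Cyp2a5 and Cry1, and those higher were Dbp (adjusted p = 0.00124), Arrdc3, Nr1d1 and Gdap10. Of these, 9 also differed in the same direction with deletion and with R245W in edgeR, by the rule given next.

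A gene was counted as lower or higher with both lesions where the deletion and the R245W term of 1 edgeR fit each had an unadjusted p below 0.05 and the same sign. With deletion, 399 genes (2.42%) were lower and 487 (2.95%) higher, and with R245W 416 (2.52%) were lower and 681 (4.13%) higher. The genes lower with both numbered 24 (0.145% of genes tested), which is 6.02% of those lower with deletion and 5.77% of those lower with R245W. The genes higher with both numbered 45 (0.273%), or 9.24% of those higher with deletion and 6.61% of those higher with R245W. Opposite directions were also found, with 67 genes (0.406%) lower with deletion and higher with R245W and 36 (0.218%) the reverse. The groups of livers also did not overlap for 14 of the 24 lower and 30 of the 45 higher genes. Without Cre-negative replicate 2 the counts were 12 lower and 23 higher, and the genes higher with both numbered 25 without Cre-negative replicate 3 and 26 without LP245/+ replicate 1. Without Cre-negative replicate 1 no deletion effect could be fitted beside the series, so a Cre value from that fit rests on R245W alone.

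**Figure D1:**
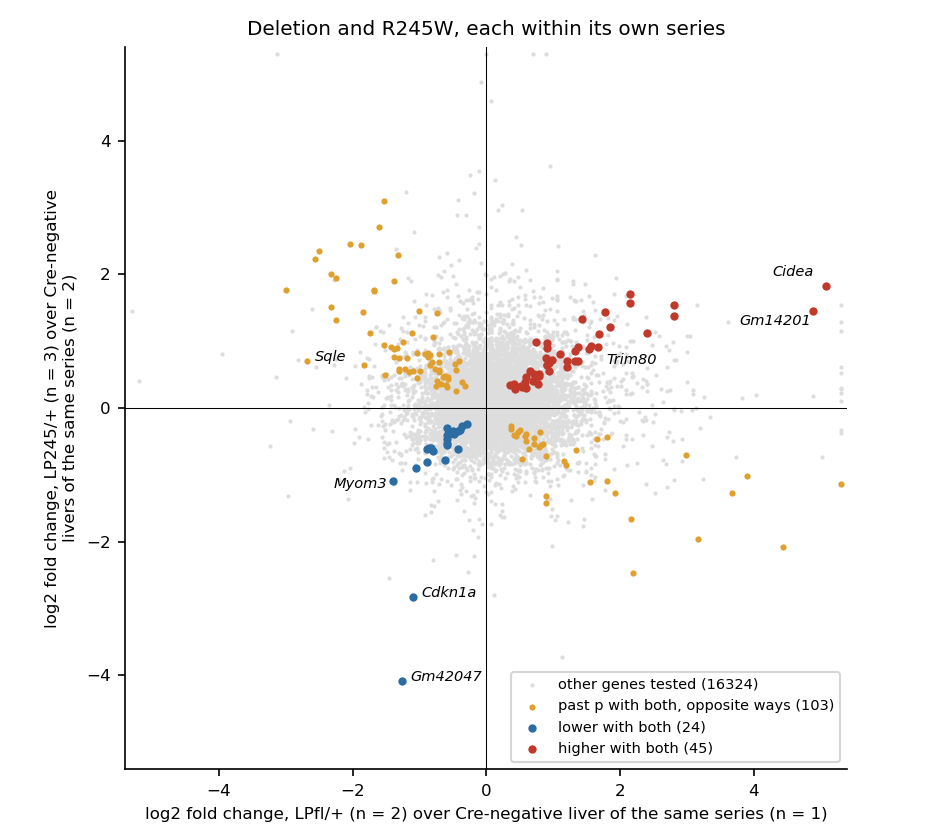
Each point is 1 of the 16496 genes tested, with the log2 fold change of the 2 LPfl/+ livers over the Cre-negative liver of their series on the horizontal axis and that of the 3 LP245/+ livers over the 2 Cre-negative livers of theirs on the vertical axis. Blue and red points are the 24 genes lower and 45 higher with both lesions, orange points the 103 past p with opposite signs, and 17 genes beyond 5.3 are drawn on the limit. Cdkn1a and Gm42047 stand apart at the lower left. Cidea and Gm14201 had 0 counts in Cre-negative replicate 1, so their horizontal position is no measured fold change.

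Cdkn1a (chr17:29090976-29100727, plus strand) encodes p21, the inhibitor of cyclin-dependent kinases through which p53 arrests the cell cycle. Its normalized counts were 188, 138 and 184 in Cre-negative livers, 75.0 and 100 in LPfl/+ livers, and 14.5, 25.3 and 27.5 in the livers with R245W. All 5 Cre-positive livers lay below all 3 Cre-negative livers, and the LP245/+ livers lay below the LPfl/+ livers. Over both lesions its log2 fold change was -2.16 (SE 0.33), a level 4.47 times lower in Cre-positive livers. Of the 30 arrangements of Cre within series, 1 gave a difference as large (exact 2-sided permutation within series, p = 0.0333). That is the lowest value that 30 arrangements can give. With deletion the log2 fold change was -1.1 (SE 0.33), and with R245W -2.83 (SE 0.28, adjusted p = 0.012 from edgeR). With equal weight given to the lesions it was -1.96 (adjusted p = 0.033 from edgeR), which passes the threshold, and without Cre-negative replicate 1 it was -2.82 (adjusted p = 0.0106 from edgeR), which rests on R245W alone. Cdkn1a is the gene among those lower with both lesions whose promoter window, printed above, holds a p53 full site.

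Gm42047 (chr8:121833247-121841178, plus strand) is annotated as a lincRNA that overlaps Gm20388 on the same strand, so reads of the overlap cannot be assigned with certainty. Its normalized counts were 342, 1278 and 958 in Cre-negative livers, 124 and 161 in LPfl/+ livers, and 57.9, 80.8 and 58.0 in LP245/+ livers. The groups did not overlap, and within Cre-negative livers replicate 1 was the lowest. The log2 fold change was -3.17 (SE 0.45) over both lesions, -1.26 (SE 0.25) with deletion and -4.08 (SE 0.20, adjusted p = 3e-05 from edgeR) with R245W.

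The other protein-coding genes lower with both lesions moved less, by a log2 fold change between -1.22 and -0.26 over both lesions. Tspyl4, a relative of the testis-specific Y-encoded protein, had normalized counts of 139, 97.0 and 88.5 in Cre-negative livers, 78.0 and 73.7 in LPfl/+ livers and 63.0, 62.6 and 57.0 in LP245/+ livers, with no overlap between Cre-positive and Cre-negative livers. Over both lesions it was lower by a log2 fold change of -0.70 (SE 0.15). Gstm3, a glutathione transferase of the mu class, had 463, 634 and 551 in Cre-negative livers, 319 and 279 in LPfl/+ livers and 277, 412 and 340 in LP245/+ livers. The groups did not overlap, the log2 fold change was -0.72 (SE 0.13), and reads may be shared with its near-identical neighbours in the Gstm cluster. Fam129b (log2 fold change -0.72, SE 0.17), the ubiquitin ligase Trim45 (-0.70, SE 0.18), the peroxiredoxin-like Fam213a (-0.39, SE 0.10), Izumo4 (-0.51, SE 0.14) and Mrap (-0.43, SE 0.12), a partner of melanocortin receptors, also showed no overlap of the livers. For the collagen cross-linking enzyme Loxl4 (-0.84, SE 0.22), the secreted protein Tsku (-0.95, SE 0.22) and the ubiquitin ligase Dtx4 (-0.35, SE 0.10) the groups overlapped. The others of the 24 included Slc22a7, Thbd, Acot11, Myom3, Ralgps1, Tpgs1, Smdt1 and Hfe.

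Among the protein-coding genes higher with both lesions, Rcor3, a corepressor of the CoREST family, was the most even. Its normalized counts were 239, 252 and 242 in Cre-negative livers, 352 and 354 in LPfl/+ livers, and 324, 307 and 330 in LP245/+ livers. Every Cre-positive liver lay above every Cre-negative liver, with a log2 fold change of 0.45 (SE 0.10). Tmem87a, a membrane protein of the Golgi, had 397, 429 and 430 in Cre-negative livers, 593 and 533 in LPfl/+ livers and 501, 515 and 583 in LP245/+ livers, again with no overlap and a log2 fold change of 0.39 (SE 0.09). Trim80 had 8.70, 44.2 and 41.4 in Cre-negative livers, 29.4 and 26.2 in LPfl/+ livers and 97.1, 76.8 and 65.2 in LP245/+ livers. It was higher in Cre-positive livers of each series but not across series, with a log2 fold change of 1.08 (SE 0.24). Cidea, a lipid droplet protein, had 0, 4.80 and 3.76 in Cre-negative livers, 3.04 and 5.05 in LPfl/+ livers and 20.7, 14.2 and 11.2 in LP245/+ livers, so the LPfl/+ livers were near the floor of 3 counts and the LP245/+ livers lay above all others. The others included Obp2a, Sult1b1, Il15ra, Odf2l, Zfp280d, Inmt and Akap5.

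**Figure D2:**
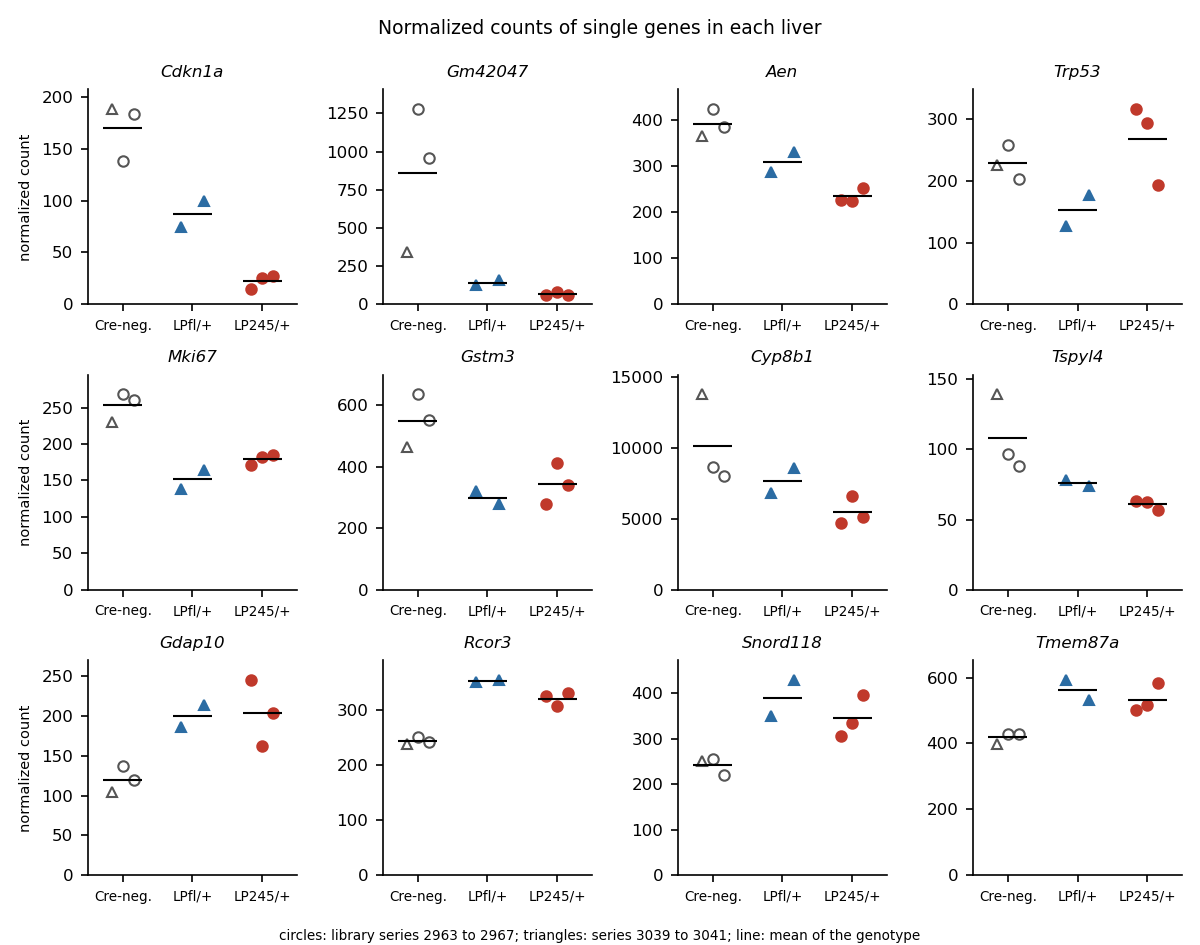
Normalized counts (vertical axes, from 0) of 12 genes in each of the 8 livers by genotype (horizontal axes), with circles for the first and triangles for the second series, open symbols for Cre-negative livers and a line at the mean of each genotype. For Cdkn1a, Gm42047, Aen, Mki67, Gstm3, Tspyl4, Gdap10, Rcor3, Snord118 and Tmem87a the 5 Cre-positive livers lie on 1 side of the 3 Cre-negative livers, while Cyp8b1 and Trp53 overlap.

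The p53 target lists were read by role. Of 63 targets tested, 40 had a negative log2 fold change in Cre-positive livers, with a median of -0.11 beside 0.01 for all genes tested, and at an unadjusted p below 0.05, 10 were lower and 1 higher (15.9% and 1.59%, against 2.31% and 4.42% of all genes). With deletion 5 were lower and 2 higher (7.94% and 3.17%, against 2.42% and 2.95% of all genes). With R245W 10 were lower and 3 higher (15.9% and 4.76%, against 2.52% and 4.13% of all genes). The counts of higher targets are near those shares. Lower with both were 2, Cdkn1a and Trim45. Targets of cell cycle arrest had a median of -0.39 over 13 genes, -0.31 with deletion and -0.20 with R245W, and 5 were lower at an unadjusted p below 0.05. Beside Cdkn1a and Trim45 these were Ccng1 (log2 fold change -0.39, SE 0.12), a cyclin that acts with MDM2, the antiproliferative Btg2 (-0.59, SE 0.22) and the kinase Plk3 (-0.40, SE 0.18). Each of these 3 was past an unadjusted p of 0.05 with 1 lesion only. Log2 fold changes with deletion and with R245W were -0.05 and -0.57 for Ccng1, -1.02 and -0.33 for Btg2 and -0.93 and -0.08 for Plk3. Without Cre-negative replicate 1 Btg2 was at -0.33 and Plk3 at -0.08, which are the R245W values. The summed normalized counts of the arrest targets lay between 7708 and 7949 in Cre-negative livers and between 5944 and 7607 in Cre-positive livers, without overlap. Without Cre-negative replicate 1, where Cre rests on R245W alone, the median of the arrest targets was -0.20.

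Apoptosis targets had a median of -0.17 over 18 genes, -0.06 with deletion and -0.24 with R245W. Aen, an exonuclease of apoptotic DNA breakdown, had normalized counts of 365, 424 and 385 in Cre-negative livers, 288 and 330 in LPfl/+ livers and 226, 224 and 252 in LP245/+ livers. The groups did not overlap and the log2 fold change was -0.59 (SE 0.13), but with deletion it was -0.23 (SE 0.18), so Aen is not among the genes lower with both. Siva1, a proapoptotic protein, had a log2 fold change of -0.38 (SE 0.17) with no overlap. Eda2r, also on the apoptosis list, had 18.4, 60.5 and 41.4 in Cre-negative livers. It had 12.2 and 27.3 in LPfl/+ livers, and 7.23, 8.08 and 6.11 in LP245/+ livers. The LP245/+ livers lay below all others, while the LPfl/+ livers lay on both sides of the Cre-negative liver of their series. The log2 fold change was 0.11 (SE 0.56) with deletion and -2.80 (SE 0.42) with R245W.

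Targets of DNA repair, of feedback on p53 and of metabolism showed smaller medians. The 9 repair genes had a median of -0.05, 0.12 with deletion and -0.14 with R245W, and 0 of them passed an unadjusted p of 0.05 in edgeR's comparison of Cre-positive with Cre-negative livers. The 6 feedback genes had a median of 0.07, and Mdm2, the ubiquitin ligase that degrades p53, had a log2 fold change of -0.12 (SE 0.11), with 1049, 1066 and 997 normalized counts in Cre-negative livers against 811 to 1124 in Cre-positive livers. The 18 metabolic targets had a median of -0.07, with Ephx1 (-0.57, SE 0.20) and the ferredoxin reductase Fdxr (-0.23, SE 0.09) lower and the scavenging chemokine receptor Ackr4 (0.46, SE 0.18) higher at an unadjusted p below 0.05. With deletion and with R245W, Ephx1 was at 0.02 and -0.88, Fdxr at -0.28 and -0.20 and Ackr4 at 0.29 and 0.55.

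Genes of proliferation were read next. Of 37 genes of the G2-M phase and mitosis, 35 had a negative log2 fold change, with a median of -0.30, -0.41 with deletion and -0.29 with R245W. At an unadjusted p below 0.05, 10 were lower and 0 higher in edgeR's comparison of all Cre-positive with Cre-negative livers (27.0% against 2.31% of all genes). With deletion 7 were lower and 1 higher (18.9% and 2.70%, against 2.42% and 2.95% of all genes). With R245W 2 were lower and 0 higher (5.41% lower, against 2.52% of all genes). The 1 higher with deletion and the 2 lower with R245W are small counts, near those shares. Mki67, the Ki-67 antigen of cycling cells, was lower with both lesions. It had normalized counts of 230, 268 and 261 in Cre-negative livers, 139 and 165 in LPfl/+ livers and 172, 182 and 185 in LP245/+ livers, with no overlap and a log2 fold change of -0.56 (SE 0.11). Its promoter window, printed above, holds both copies of TTTGAA within 24 bases. The spindle kinase Ttk (log2 fold change -1.22, SE 0.35), the spindle assembly factor Tpx2 (-0.73, SE 0.23) and the mitotic ubiquitin-conjugating enzyme Ube2c (-0.73, SE 0.28) also did not overlap.

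The summed normalized counts of the G2-M genes lay between 2054 and 2088 in Cre-negative livers and between 1434 and 1929 in Cre-positive livers. Red blood cell genes moved alongside. All 10 were negative, with a median of -0.53 (-0.80 with deletion, -0.26 with R245W). Without Cre-negative replicate 1, where Cre rests on R245W alone, their median was also -0.26. Their sum ranged from 14690 to 20500 in Cre-negative and from 9711 to 19450 in Cre-positive livers. Hba-a1, an alpha globin, had a log2 fold change of -0.67 (SE 0.22), with reads that may be shared with the near-identical Hba-a2 (-0.64, SE 0.24). Their part in the G2-M result was not tested. Genes of the S phase had a median of -0.11 over 34 genes, 0.10 with deletion and -0.12 with R245W. At an unadjusted p below 0.05 only E2f2 (-0.54, SE 0.23) was lower and only the DNA polymerase subunit Pola1 (0.32, SE 0.11) higher. Each is 2.94% of the list, near the 2.31% lower and 4.42% higher of all genes.

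Clock genes differed in both directions. In the liver clock, ARNTL with its partners CLOCK and NPAS2 drives Per, Cry and Nr1d genes and outputs such as Dbp, and the products of Cry1 and of Nr1d1 and Nr1d2 repress in turn. Of 20 clock genes, 4 were lower and 6 higher at an unadjusted p below 0.05 in Cre-positive livers (20% and 30% of the list, against 2.31% and 4.42% of all genes), with Cry1 lower and Nr1d1, Nr1d2 and Tef higher with both lesions. Nr1d1 had normalized counts of 148, 902 and 722 in Cre-negative livers, 462 and 297 in LPfl/+ livers and 1764, 1156 and 1025 in LP245/+ livers. Within each series all Cre-positive livers lay above the Cre-negative ones, but over all livers the groups overlapped, and the log2 fold change was 0.90 (SE 0.22). Nr1d2 showed the same order within the series, with 1290, 2194 and 2159 in Cre-negative livers, 2249 and 2143 in LPfl/+ livers and 3274, 2255 and 3541 in LP245/+ livers (log2 fold change 0.59, SE 0.14).

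Cry1 was the reverse. It had 600, 353 and 422 normalized counts in Cre-negative livers, 466 and 421 in LPfl/+ livers and 238, 269 and 249 in LP245/+ livers, a log2 fold change of -0.54 (SE 0.10), and its promoter window holds the E-box printed above. Dbp ranged from 23.2 in Cre-negative replicate 1 to 667 in LP245/+ replicate 1. The other Cre-negative livers had 221 and 102, the LPfl/+ livers 64.8 and 51.5, and the other LP245/+ livers 267 and 530, for a log2 fold change of 1.55 (SE 0.34), 1.33 (SE 0.71) with deletion and 1.61 (SE 0.40) with R245W. Per3 had a log2 fold change of 1.05 (SE 0.32), Arntl of -0.61 (SE 0.19) and Npas2 of -0.67 (SE 0.32). Arrdc3, an arrestin-domain protein that restrains metabolic receptors and was not on the clock list, had 1588, 13316 and 8183 in Cre-negative livers, 3062 and 4216 in LPfl/+ livers and 15375, 14935 and 21835 in LP245/+ livers, with a log2 fold change of 0.87 (SE 0.21). Cre-negative replicate 1 stood apart from the other Cre-negative livers for these genes, and its part in the clock result was not tested. Leaving it out cannot show that part, since the Cre value then rests on R245W alone. Leaving out 1 liver moved the median of the clock list from 0.22 to between 0.05 (without LP245/+ replicate 1) and 0.35 (without Cre-negative replicate 1). In the full fit it was 0.06 with deletion and 0.35 with R245W.

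**Figure D3:**
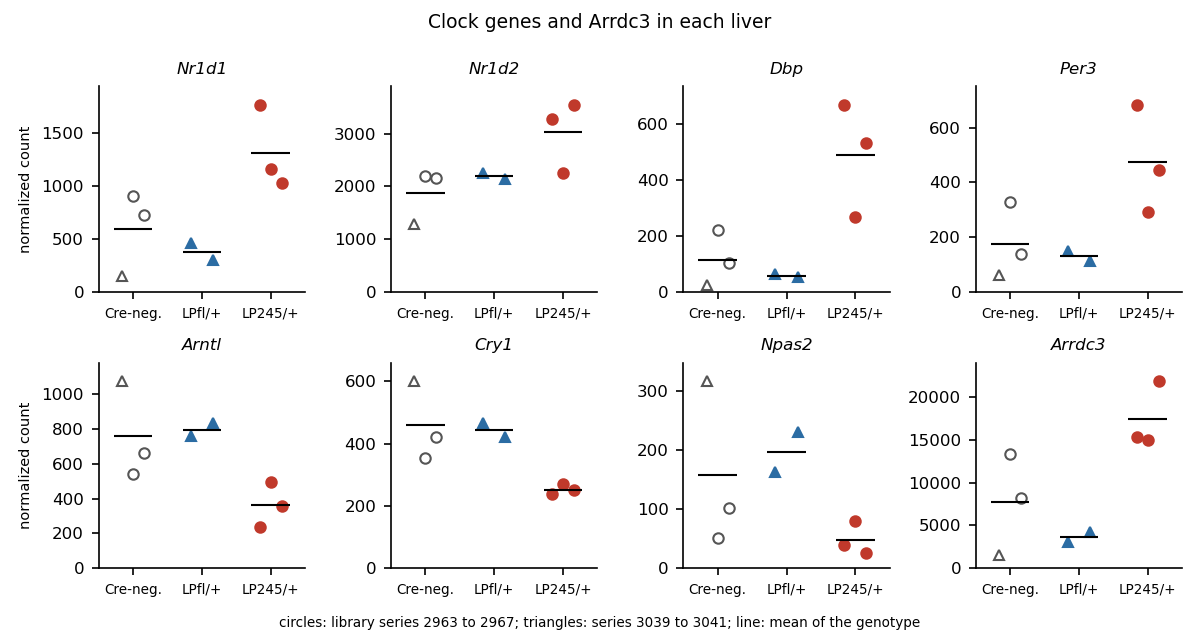
Normalized counts (vertical axes, from 0) of 7 clock genes and Arrdc3 in each liver by genotype, with circles for the first and triangles for the second series and a line at the mean of each genotype. Cre-negative replicate 1 is the lowest liver for Nr1d1, Nr1d2, Dbp, Per3 and Arrdc3 and the highest for Arntl, Cry1 and Npas2. Within each series Nr1d1, Nr1d2 and Arrdc3 are higher in every Cre-positive liver.

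Of the bile acid genes and of the drug-metabolizing genes 1 each was lower with both lesions, Cyp8b1 and Gstm3. Cyp8b1, the sterol 12-alpha-hydroxylase that decides the share of cholic acid among bile acids, had 13795, 8698 and 8026 normalized counts in Cre-negative livers, 6826 and 8603 in LPfl/+ livers and 4709, 6631 and 5169 in LP245/+ livers. The LP245/+ livers lay below all Cre-negative livers, LPfl/+ replicate 2 lay among them, and the log2 fold change was -0.68 (SE 0.13). The 22 bile acid genes together had a median of -0.06, with the transporter Slco1a1 higher (0.97, SE 0.35, and 0.06, SE 0.43, with deletion). Of 37 xenobiotic metabolism genes, 1 was higher in Cre-positive livers at an unadjusted p below 0.05 (2.70%, near the 4.42% of all genes). At the same threshold 8 were lower (21.6%, against 2.31% of all genes). Cyp2a5 (-0.57, SE 0.13), the coumarin hydroxylase, the transferase Gstm2 (-0.58, SE 0.16) and the quinone reductase Nqo1 (-0.59, SE 0.16), both NRF2 targets as is Gstm3, were among them. With deletion and with R245W, Cyp2a5 was at -0.43 and -0.65, Gstm2 at -0.10 and -0.83 and Nqo1 at -0.47 and -0.65. With R245W 16 of the 37 were lower and 1 higher (2.52% and 4.13% of all genes), while with deletion 2 were lower and 7 higher (2.42% and 2.95% of all genes). The 1 higher with R245W and the 2 lower with deletion are near those shares. Ugdh, which makes the glucuronic acid donor and was chosen after its values were seen, had 2763, 3848 and 3658 in Cre-negative livers against 1997 to 2490 in Cre-positive livers, with no overlap and a log2 fold change of -0.56 (SE 0.11).

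Genes of cholesterol and fatty acid synthesis had medians of opposite sign with the lesions. For cholesterol synthesis the Cre-negative liver behind the deletion values stood apart. The summed normalized counts of the cholesterol synthesis genes were 133800 in Cre-negative replicate 1 and between 65080 and 93830 in the other 7 livers, with both LPfl/+ livers inside the range of the remaining livers or at its lower end. All 25 cholesterol synthesis genes were negative with deletion, with a median of -1.1. At an unadjusted p below 0.05, 23 of them were lower (92.0%, against 2.42% of all genes). With R245W the median was 0.42, and 11 were higher and 0 lower at an unadjusted p below 0.05 in edgeR (44.0% higher, against 4.13% of all genes). Past p in opposite directions were 10, lower with deletion and higher with R245W (0.406% of all genes). The median over both lesions was -0.19, and without Cre-negative replicate 1, where Cre rests on R245W alone, it was 0.42. Sqle, the squalene epoxidase, had 3535 normalized counts in Cre-negative replicate 1 and 274 and 198 in replicates 2 and 3, while the LPfl/+ livers had 507 and 587 and the LP245/+ livers 473, 243 and 422. A single Cre-negative liver stood far above the other 7. The log2 fold change of Sqle was -2.68 (SE 0.30, adjusted p = 0.0248 from edgeR) with deletion and 0.70 (SE 0.25) with R245W, and the sign of the latter turned without the series as a covariate.

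All 20 de novo lipogenesis genes were negative with deletion, with a median of -0.60. At an unadjusted p below 0.05, 11 of them were lower (55.0%, against 2.42% of all genes). With R245W the median was 0.27, with 16 genes positive and 4 negative. At the same threshold 4 of the 20 were higher with R245W (against 4.13% of all genes) and 0 lower. The median over both lesions was -0.07, and without Cre-negative replicate 1, where Cre rests on R245W alone, it was 0.27. Fasn, the fatty acid synthase, had log2 fold changes of -1.39 (SE 0.38) with deletion and 0.88 (SE 0.30) with R245W. Fgf21, a hepatokine, had 118, 117 and 126 in Cre-negative livers, 74.0 and 68.7 in LPfl/+ livers and 227, 190 and 217 in LP245/+ livers, so that neither lesion overlapped the Cre-negative livers, with log2 fold changes of -0.72 (SE 0.24) and 0.81 (SE 0.17). Moxd1, a monooxygenase-like gene, had 2223 in Cre-negative replicate 1, 39.4 in LPfl/+ replicate 2 and at most 4.13 in the other 6 livers, so its log2 fold change of -5.74 (SE 0.99) rests on 1 liver. Sqle, Fasn, Fgf21 and Moxd1 were chosen after their values were seen.

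Interferon-stimulated genes had a median of 0.56 with deletion, where 12 of 40 were higher at an unadjusted p below 0.05 (2.95% of all genes), and of -0.43 with R245W, where 9 were lower (2.52% of all genes). None of the 10 genes past the adjusted p for the difference between the lesions in edgeR was on this list. Their summed normalized counts were 24260 in Cre-negative replicate 1, the lowest of all livers, and 37650 and 28410 in the other Cre-negative livers. The median over both lesions was -0.10, and 0.21 without Cre-negative replicate 2. Without replicate 1, where Cre rests on R245W alone, it was -0.43. Acute phase genes had a median of -0.18, which was 0.06 with deletion and -0.30 with R245W. With R245W 9 of 26 were lower and 1 higher at an unadjusted p below 0.05 (34.6% and 3.85%, against 2.52% and 4.13% of all genes). Their median was -0.06 without Cre-negative replicate 2, and -0.30 without replicate 1, where Cre rests on R245W alone. Serpina3n, a serine protease inhibitor on the acute phase list, was lower in Cre-positive livers without overlap (log2 fold change -0.34, SE 0.12). It was at -0.15 with deletion and -0.45 with R245W. Of the markers of other cells, macrophage genes had a median of -0.05, 0.23 with deletion (20 of 26 positive) and -0.21 with R245W (25 of 26 negative). Only the scavenger receptor Cd163 was past an unadjusted p of 0.05 over both lesions (3.85% of the list, near the 2.31% of all genes). Cd163 was lower without overlap (-0.40, SE 0.12), at -0.23 with deletion and -0.50 with R245W. Endothelial, stellate and cholangiocyte genes had medians of -0.04, -0.05 and 0.01. Hepatocyte markers had a median of -0.08, with 0 of 21 past an unadjusted p of 0.05 in edgeR. Their sums overlapped between Cre-positive and Cre-negative livers.

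**Figure D4:**
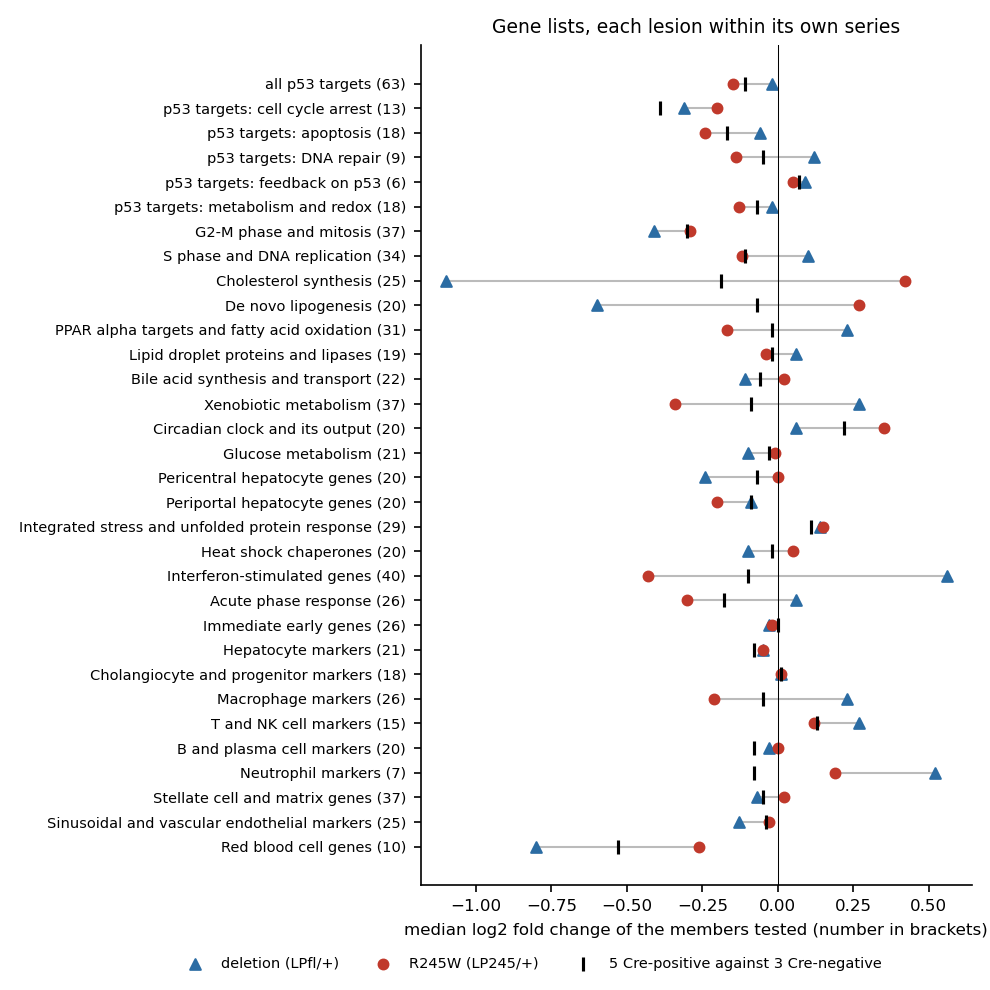
Median log2 fold change (horizontal axis) of each gene list, with the number of members tested in brackets, for deletion (triangles), R245W (circles) and all Cre-positive against Cre-negative livers (bars). Cholesterol synthesis (-1.1 and 0.42), de novo lipogenesis (-0.60 and 0.27), xenobiotic metabolism (0.27 and -0.34) and interferon-stimulated genes (0.56 and -0.43) lie on opposite sides of 0 for the lesions. The arrest targets of p53, G2-M genes and red blood cell genes lie below 0 for both. So do other lists, such as apoptosis targets (-0.06 and -0.24) and periportal genes (-0.09 and -0.20).

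Transcripts that do not code for protein tended to higher values in Cre-positive livers. Of the 45 genes higher with both lesions, 29 were not protein-coding, whereas these make up 19.3% of the genes tested (3182), and 1 of the 24 lower genes was. The median log2 fold change of all noncoding genes was 0.24, with 357 higher and 29 lower at an unadjusted p below 0.05, beside -0.02 for the 13314 protein-coding genes with 372 higher and 352 lower. TEC genes, annotated loci still to be experimentally tested, had a median of 0.39 over 765 genes (0.39 with deletion and 0.36 with R245W). Small nucleolar RNAs, which guide the modification of ribosomal RNA, had a median of 0.34 over 78 genes, which was 0.15 with deletion and 0.50 with R245W, and antisense genes had one of 0.25 over 617.

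Snord118, the U8 RNA needed to process ribosomal RNA, had 250, 255 and 220 normalized counts in Cre-negative livers, 351 and 429 in LPfl/+ livers and 306, 335 and 395 in LP245/+ livers. All Cre-positive livers were above all Cre-negative livers, and the log2 fold change was 0.59 (SE 0.12). Gdap10, a lincRNA inside Nampt on the same strand, had 104, 136 and 120 in Cre-negative livers, 185 and 213 in LPfl/+ livers and 244.9, 162 and 204 in LP245/+ livers, again without overlap (log2 fold change 0.77, SE 0.16), while Nampt itself had a log2 fold change of 0.10 (adjusted p = 0.908 from edgeR). The TEC genes Gm43300 (1.15, SE 0.26), Gm21816 (0.92, SE 0.21) and Gm42576 (0.73, SE 0.18), the sense intronic Gm42941 (0.91, SE 0.24) and the pseudogene Gm29014 (1.83, SE 0.42, at 2.90 to 18.6 normalized counts) showed no overlap of the livers, which did overlap for the TEC gene 9330162G02Rik (0.51, SE 0.12). Of the 29, 13 lay inside a protein-coding gene on its own strand (44.8%, against 29.9% of all noncoding genes tested), 11 lay opposite one and 5 outside. The libraries were made from total RNA, which holds unspliced transcripts, and the strand counted is not given in the sources used here, so genes inside or opposite others are uncertain.

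As a share of all counts, TEC genes took 0.1%, 0.0837% and 0.0907% in Cre-negative livers and 0.101% to 0.129% in Cre-positive livers, without overlap. Small nucleolar RNAs took 0.0469% to 0.0556% in Cre-negative and 0.0613% to 0.0811% in Cre-positive livers. The 37 genes of the mitochondrial genome moved alongside, at 6.90%, 6.77% and 5.88% of counts in Cre-negative livers and 7.57% to 9.70% in Cre-positive livers, again without overlap. The part of the mitochondrial share in the noncoding result was not tested. Shares of lincRNA, antisense, processed transcript, sense intronic and processed pseudogene genes overlapped between the groups. Antisense genes, for instance, took 0.107% to 0.123% in Cre-negative and 0.113% to 0.144% in Cre-positive livers.

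**Figure D5:**
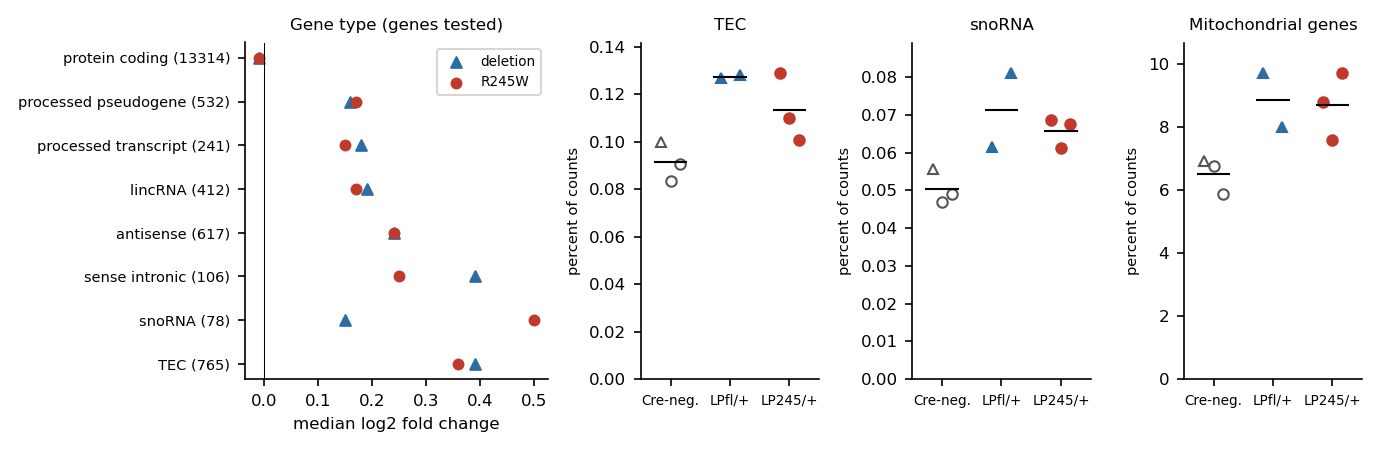
Left, median log2 fold change (horizontal axis) of the genes tested of each annotated type (vertical axis, number in brackets) with deletion (triangles) and R245W (circles). Right, percent of counts (vertical axes, from 0) of TEC genes, small nucleolar RNAs and mitochondrial genes in each liver by genotype, with circles for the first and triangles for the second series and a line at the mean. In all 3 panels the 5 Cre-positive livers lie above the 3 Cre-negative livers, from 7.57% against at most 6.90% for mitochondrial genes. Shares of the other noncoding types named at left, not drawn, overlapped between the groups.

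The genes that differed in the same direction with both lesions were spread over the genome. Chromosome 3 held the highest share, 8 of its 885 genes tested (0.904%), and chromosome 2 came next with 10 of 1248 (0.801%), while chromosome 8 had 1 of 921 (0.109%) and chromosome 11, where Trp53 lies, 3 of 1276 (0.235%). Promoter windows from 250 bases before to 50 after the start were at hand for 15 of the 24 lower and 18 of the 45 higher genes. A p53 half-site on either strand was found in 1 of the 15, Cdkn1a, and in 1 of the 18, Trim80, against 9.55% of all 27025 windows, 8.36% of those of genes tested and 15 of 53 p53 targets tested (28.3%). A p53 full site, a pair of half-sites 0 to 13 bases apart, was in 20 of all windows (0.074%). CACGTG was in Cry1 and Acot11 of the lower and Tef of the higher genes, against 8.09% of all windows and 11.3% of those of genes tested, and TTTGAA in 5 of the 15 lower genes, Mki67, Gstm3, Acot11, Tpgs1 and Hfe, and 3 of the 18 higher genes, against 20.2% of all windows and 15.1% of those of genes tested.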

How the data were processed

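The authors deposited raw counts per gene, whole numbers without normalization, for 49585 genes in 8 livers. The libraries were made from total RNA with a stranded kit, and paired reads were aligned to GRCm38 and counted with STAR. The STAR version, the GENCODE release and the strand counted are not given in the sources used here. All 8 columns matched a label, with 0 columns left without a sample. Library totals were 26304526 to 31370714 counts, and 3 counts were taken as the floor, which covers counting error only. Gene types and positions were read from GENCODE M21, and promoters from RefSeq.

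edgeR 4.0.16 under R 4.3.3 was used (quasi-likelihood F test, TMM normalization, filterByExpr, Benjamini-Hochberg adjustment over the 16496 genes tested). A first fit held the series of library numbers and Cre, and a second held series, deletion and R245W. Single genes were also tested by permuting Cre within series. The livers are separate samples by their labels, so p-values measure the spread between these livers. Alternatives were no series, equal weight of the lesions, DESeq2 1.42.0, its size factors in edgeR, other filters, the replicate number as a block and each liver left out in turn. Counts at an unadjusted p under each alternative, list medians for each lesion and the motifs CACGTG and TTTGAA were added after seeing the data.

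The livers compared, the gene lists and the tests were chosen with earlier results of these data known, so no list is independent evidence. Genes named are Trp53, Cdkn1a and Aen, up to 15 genes in each direction past the adjusted p, the 15 genes in each direction with the smallest larger p among those that differed in the same direction with both lesions at a mean normalized count of at least 10, up to 4 members of each list with the smallest p, and each p53 target past an unadjusted p of 0.05. Genes outside this rule were chosen after their values were seen, among them Moxd1, Sqle, Fasn, Fgf21, Per3, Arntl, Npas2 and Ugdh. No gene set test was run.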

Additional observations from a re-analysis of the deposited data

Results flagged for a closer look

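A single liver stood apart among the 5 Cre-positive livers for 7 of the 148 values screened, and chance marks about 1 in 20 such groups. The livers were LPfl/+ replicate 2 for Moxd1 (39.4 normalized counts) and Eda2r (27.3), LPfl/+ replicate 1 for G6pc (25614) and Csf3r (69.9), LP245/+ replicate 3 for Fam213a (2265) and Siva1 (65.2), and LP245/+ replicate 1 for Agpat2 (4916). The effect of R245W differed from that of deletion for Gm42047 by a log2 fold change of -2.82 and for Sqle by 3.38 (adjusted p = 0.0218 from edgeR for either), and these differences also hold any difference between the Cre-negative livers of the series.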

How the results depend on the processing

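The count of genes past an adjusted p of 0.05, 0 in either direction, was 2 lower and 0 higher with equal weight of the lesions, 8 lower and 4 higher with DESeq2 and 14 lower and 6 higher without the filter on low counts. Of these, 2, 3 and 11 genes also passed a log2 fold change of 1. When single livers were left out, 0 to 3 genes were lower past the adjusted p, as many past the fold change as well, and the 3 came without Cre-negative replicate 1, where Cre rests on R245W alone. At an unadjusted p below 0.05 those fits gave 269 to 572 lower and 444 to 731 higher genes. Cdkn1a passed the adjusted p at -1.96 with equal weight, -2.22 with DESeq2 and -2.16 without the filter, and its log2 fold change lay between -2.82 and -1.90 with a liver left out. Trp53 lay between -0.24 and 0.23 in the same fits and so changed sign. The -2.82 and the 0.23 came without Cre-negative replicate 1, where Cre rests on R245W alone. The genes lower with both lesions numbered 3 with both p under 0.01, 41 without the series, 48 without the filter and 12 to 33 with a liver left out. Those higher with both numbered 2, 156 and 86 in the same order, 18 with DESeq2, and 23 to 57 with a liver left out. Without the series, the Sqle R245W log2 fold change turned to -1.81. The cause of these changes was not tested.

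Livers with the same replicate number deviated from their group means with correlations of -0.08 to 0.03, and livers with different numbers with -0.11 to 0.08. This could hardly reveal pairing, because the Cre-negative livers come from both series and LPfl/+ has only 2 livers. With the replicate number as a block beside the series, 18 genes were lower and 17 higher with both lesions, 0 passed the adjusted p in edgeR (395 lower and 625 higher at an unadjusted p below 0.05), and the Cdkn1a cre log2 fold change was -2.14. Of 2208 recomputed values of 150 single-gene effects, Trp53 and Cdkn1a not counted, 2171 kept their direction and side of the threshold, 31 passed it anew, 5 lost it and 1 changed sign, that of Sqle. Leaving out Cre-negative replicate 1 gave no value for the deletion effect or the genes shared by the lesions. The deletion rests on 1 Cre-negative liver.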
